A study of Mus musculus with 6 samples.

Results

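Chromatin regulators are the enzymes and complexes that modify histones, methylate DNA or move nucleosomes, and 49 genes of this kind were chosen by name to describe the accessible chromatin around them. They are 49 of the 22380 protein-coding genes that the GENCODE vM1 annotation places on chromosomes with peaks. The list holds 15 Polycomb genes, 6 histone demethylases, 6 histone deacetylases, 4 histone acetyltransferases, 6 nucleosome remodellers, 6 genes that write or remove DNA methylation, and 6 further genes, which are the corepressor Ncor1, the architectural genes Ctcf and Rad21, and the histone methyltransferases Setd2, Dot1l and Ash1l. All 49 were found in the annotation. Of these, 5 (Ncor1, Hdac1, Hdac3, Kdm1a and Kdm5a) encode parts of the corepressor machinery that RBPJ recruits, so that the name RBPJ corepressor genes covers a small share of the list. Another 72 chromatin genes, also chosen by name, served for comparison.

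ATAC-Seq, in which a transposase cuts accessible DNA, was performed on Beko cells, which are mouse T-cell progenitors grown as a line and have constitutively active Notch signaling. For 24 h, 3 libraries received the γ-secretase inhibitor (GSI) DAPT, given in the labels as 10 mg/ml and in the study's methods with the same figure in µg/ml, and 3 libraries received the solvent DMSO. The study asked how RBPJ binding and chromatin respond when GSI blocks the release of the Notch intracellular domain. What is described here is 1 list of 32527 peaks, merged over both treatments and given as positions on the mouse build mm9. It holds no height and no value per library, so GSI was not compared with DMSO, no value has a replicate error, and no test was made. All libraries come from 1 cell line, and neither the labels nor the methods used here say that they were separate cultures. Of 7 T-cell genes found in the annotation, 6 had a peak at an annotated start, among them Lck, Bcl11b and Tcf7 but not Cd3d. None of 4 B-cell genes and none of 4 myeloid genes had one, so that these genes did not go against the T-cell label of the line.

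RBPJ is the DNA-binding factor of the Notch pathway. Bound to the Notch intracellular domain it activates transcription, and without it RBPJ can recruit corepressors such as SPEN and NCOR1, which bring the histone deacetylase HDAC3, and the histone demethylases KDM1A and KDM5A. Polycomb repressive complex PRC2 methylates lysine 27 of histone H3 through EZH1 or EZH2, and PRC1 ubiquitinates histone H2A through RING1 or RNF2. Acetyltransferases and deacetylases add and remove acetyl groups, SWI/SNF and CHD remodellers slide or evict nucleosomes, DNMT enzymes methylate cytosine and TET enzymes oxidise the methyl group. The word TGGGAA is the core of the sequence that RBPJ binds.

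To show what an accessible RBPJ word looks like at the corepressor genes, 1 occurrence inside a promoter peak is printed for each of 4 of them, outside every annotated exon, with TGGGAA in capitals and 24 bases on each side. Each is read from mm9 on the strand of the word, here the minus strand in every case. Ncor1 lies at chr11:62270344-62270397, Hdac1 at chr4:129219346-129219399, Kdm1a at chr4:136157995-136158048 and Kdm5a at chr6:120313738-120313791.
Ncor1: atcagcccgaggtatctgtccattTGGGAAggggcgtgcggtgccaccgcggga
Hdac1: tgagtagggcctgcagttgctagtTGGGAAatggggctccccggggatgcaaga
Kdm1a: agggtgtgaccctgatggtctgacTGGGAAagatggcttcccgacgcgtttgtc
Kdm5a: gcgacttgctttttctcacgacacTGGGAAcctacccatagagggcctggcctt
Relative to the 5′ end of the gene, with downstream positive, the word lies at -355 bp in Kdm5a, 587 bp in Hdac1, 619 bp in Kdm1a and 1675 bp in Ncor1. A match is a description of the letters and does not show that RBPJ binds there.

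A promoter peak was taken to be a peak within 1 kb of any annotated start of a gene. Of the 49 genes, 43 (87.8%) had one, against 46.9% of all coding genes and 66 of the other 72 chromatin genes (91.7%). The widest promoter peak of the 43 genes ranged from 469 bp at Bmi1 to 1707 bp at Ezh2, with a median of 1108 bp. The median was 926 bp over coding genes with a promoter peak and 1146 bp over the other chromatin genes. The listed genes thus lay close to other chromatin genes in both measures and above coding genes at large. In 28 of the 43 (65.1%) the widest peak exceeded 1 kb, against 39.8% of coding genes with a promoter peak. The 5′ end of the gene itself was inside a peak in 38 of the 49 genes (77.6%), against 40.0% of coding genes, and on its upstream side these peaks extended 418 bp at the median, on its downstream side 609 bp.

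The group medians of promoter width ran from 1005 bp in the acetyltransferases through 1041 bp (DNA methylation), 1070 bp (demethylases), 1108 bp (Polycomb), 1135 bp (remodellers) and 1276 bp (deacetylases) to 1400 bp in the further genes. The ranges of all 7 groups overlapped. Every group had at least 1 gene under 1 kb, so the order of the medians separates no group from another.

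**Figure D1:**
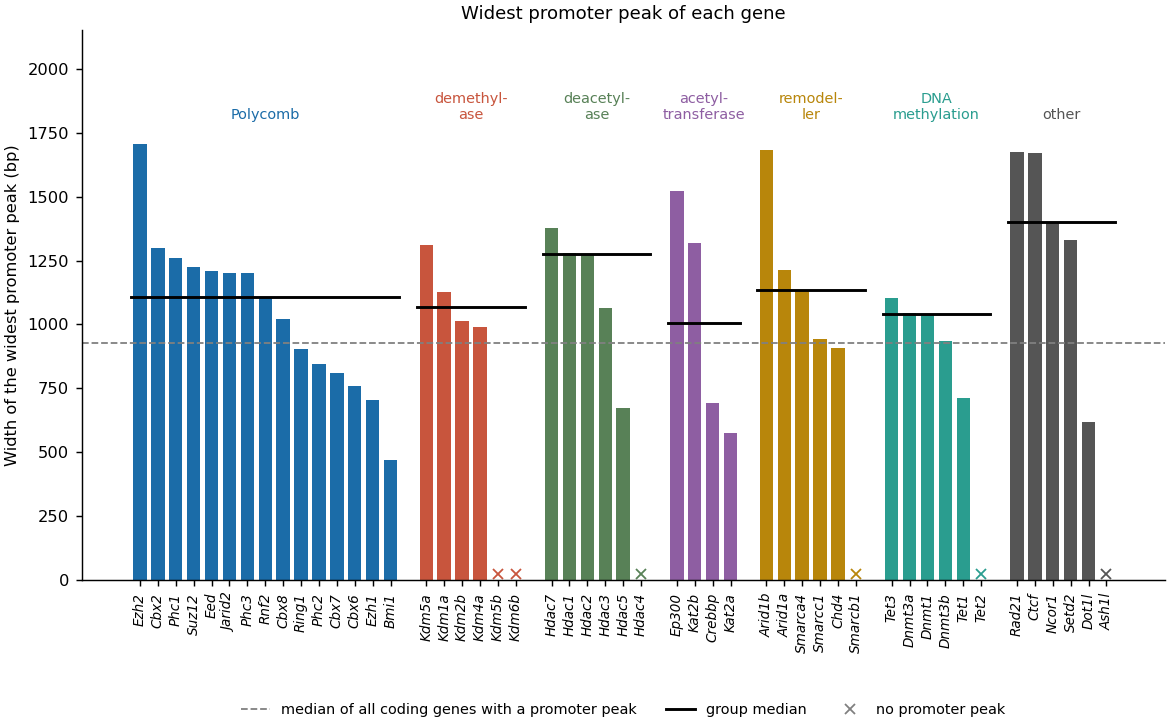
Width in bp of the widest promoter peak of each of the 49 genes (bars), by group, with the group median (black line), the median of coding genes with a promoter peak, 926 bp (dashed line), and a cross for each of the 6 genes without a promoter peak. The bars spread least in the demethylases (992 to 1310 bp, all above the dashed line) and more widely in the other groups. In each group the median lies above the dashed line.

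Among the PRC2 genes, Ezh2, the catalytic subunit of dividing cells, had the widest promoter peak of the list, 1707 bp from -552 to 1154 bp relative to the 5′ end (chr6:47544186-47545892). Its paralog Ezh1 had 706 bp at the 5′ end and a second promoter peak of 656 bp at an annotated start within the gene. The cofactors Eed and Suz12 lay between them with 1210 and 1226 bp. Jarid2, an accessory subunit of PRC2, had no peak over its 5′ end. Its 2 promoter peaks, of 1202 and 851 bp, began 700 bp and 3861 bp downstream, and each contained an annotated start. Ezh1 and Jarid2 were the PRC2 genes with intronic peaks, 2 and 3 respectively, while Ezh2, Eed and Suz12 had none.

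Among the PRC1 genes, the ubiquitin ligases Ring1 and Rnf2 had single promoter peaks of 903 and 1108 bp. Bmi1, which stimulates the ligase, had the narrowest widest peak of the list, with 332 bp upstream of the 5′ end and 469 bp across it. Together the 2 Bmi1 peaks cover 801 bp. The Cbx proteins read the methyl mark that PRC2 writes. Cbx2 (1297 bp) and Cbx8 (1023 bp) stand next to each other on chromosome 11, and each of their promoter peaks lies within 20 kb of the other gene. Cbx6 had 761 bp, in a peak shared with the start of Npcd. Of the Phc genes, whose proteins polymerise PRC1, Phc1 (1258 bp) and Phc3 (1201 bp) had 1 promoter peak each, and Phc2 had 3, of 791, 606 and 846 bp, the last at starts up to 73244 bp from the 5′ end.

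Cbx7 was the Polycomb gene without accessibility near its 5′ end. The peak nearest to that end was 12102 bp away, and its promoter peak of 809 bp lay 38062 bp into the gene, at internal starts. The introns of Cbx7, 51.5 kb in all, held 6 peaks of 373 to 1082 bp. Of 295 coding genes with 6 or more intronic peaks, none but Cbx7 had introns of that total length or less. All but 1 of these 6 peaks lay between the 5′ end and the internal promoter peak, and together 3 of them held 7 TGGGAA words.

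Kdm2b, a demethylase that brings a PRC1 complex to CpG islands, had 5 promoter peaks, of 1015, 496, 496, 864 and 438 bp in the direction of transcription. Among all coding genes, 7 had 5 or more. Its 22 distinct annotated starts fall into 12 places (starts within 1 kb of the next were joined), and 5 of the places had a peak. The peak at the 5′ end of Kdm2b was shared with the start of Orai1, and the pair of 496 bp was shared with A930024E05Rik. The corepressor demethylases Kdm1a and Kdm5a had single peaks of 1125 and 1310 bp across their 5′ ends and no intronic peak. Kdm4a had 992 bp and no intronic peak. The Kdm5a peak was shared with the start of Ccdc77.

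The H3K4 demethylase Kdm5b and the H3K27 demethylase Kdm6b had no promoter peak. At Kdm5b the peak nearest to the 5′ end was 41192 bp away, upstream, and so outside the 20 kb flank, and the gene held no peak at all. Kdm6b was different. Its nearest peak began 1614 bp downstream of the 5′ end, and 3 intronic peaks (359, 760 and 844 bp) and 1 exonic peak (470 bp) followed each other up to 5128 bp downstream. A further peak of 1779 bp lay between genes, from -5588 to -3810 bp relative to the 5′ end (chr11:69230987-69232765), and was wider than any promoter peak of the 49 genes. With introns of 8.21 kb, Kdm6b was the sole gene among 1059 coding genes with 3 or more intronic peaks to have introns that short. Kdm5a and Kdm5b, which share a substrate, thus differed in the list by the presence of a promoter peak.

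The upstream Kdm6b peak held 4 TGGGAA words, the most in any peak of the listed genes that was no promoter peak of a gene. They are printed as above, with the strand of the word, because this peak is the nearest one upstream of a gene that lacks a promoter peak.
Kdm6b, chr11:69231058-69231111, minus: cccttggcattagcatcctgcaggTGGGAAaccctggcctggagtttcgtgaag
Kdm6b, chr11:69231308-69231361, plus: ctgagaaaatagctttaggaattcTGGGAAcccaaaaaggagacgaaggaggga
Kdm6b, chr11:69232482-69232535, minus: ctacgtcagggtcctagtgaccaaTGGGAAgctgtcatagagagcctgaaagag
Kdm6b, chr11:69232553-69232606, plus: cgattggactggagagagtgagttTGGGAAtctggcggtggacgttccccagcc

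Hdac1, Hdac2 and Hdac3, the class I deacetylases of the large corepressor complexes, had single promoter peaks of 1281, 1276 and 1064 bp and no intronic peak. All 3 peaks contained the 5′ end. The Hdac3 peak was shared with the start of Rell2. The class IIa deacetylases, which shuttle between nucleus and cytoplasm, were less alike. Hdac7, the member of this class that thymocytes express strongly, had the widest peak of the deacetylases at 1377 bp and a second of 762 bp at an internal start. Hdac5 had 664 bp at the 5′ end and 673 bp at an internal start. Hdac4 had no peak within 1 kb of a GENCODE start, the nearest to its 5′ end being 17570 bp downstream. Each of Hdac4, Hdac5 and Hdac7 had 2 intronic peaks, in 212, 27.0 and 46.3 kb of intron.

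The acetyltransferases fell into pairs of paralogs with unlike promoters. Ep300 had 1 peak of 1520 bp, whereas its paralog Crebbp had 2, of 600 bp across the 5′ end and 692 bp from 439 bp upstream of it. Kat2b had 369 bp across the 5′ end and 1318 bp from 483 bp downstream, whereas Kat2a had a single peak of 577 bp, the narrowest of the group. In summed width the 4 genes held 1520 bp (Ep300), 1292 bp (Crebbp), 1687 bp (Kat2b) and 577 bp (Kat2a). In summed width Crebbp thus came nearer to Ep300 than in its widest peak. Kat2b had 3 intronic peaks, Ep300 had 1, and Crebbp and Kat2a had none.

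Of the SWI/SNF subunits, the ATPase Smarca4 had a promoter peak of 1135 bp and the scaffold Smarcc1 one of 944 bp. Arid1a and Arid1b, alternative DNA-binding subunits, had 2 each, of 1212 and 585 bp and of 707 and 1680 bp. In Arid1a the wider peak covered the 5′ end, and in Arid1b it began 487 bp downstream of it. Chd4, the ATPase of the NuRD complex, had 909 and 698 bp. Smarcb1, the core subunit of SWI/SNF, had no promoter peak, and the nearest peak to its 5′ end, 10597 bp upstream, belonged to the start of another gene.

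Arid1b stood out among the introns. Its 341 kb of intron held 14 peaks of 316 to 1163 bp, which is 14 of the 19 intronic peaks of the remodellers and 14 of the 64 of the whole list. Of all coding genes, 27 had 14 or more intronic peaks, and 4 of these, Arid1b included, had no more intron than it. The peaks were not spread evenly, for 11 of the 14 lay between 89837 and 207871 bp from the 5′ end. Arid1a, by contrast, had 2 in 66.3 kb.

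**Figure D2:**
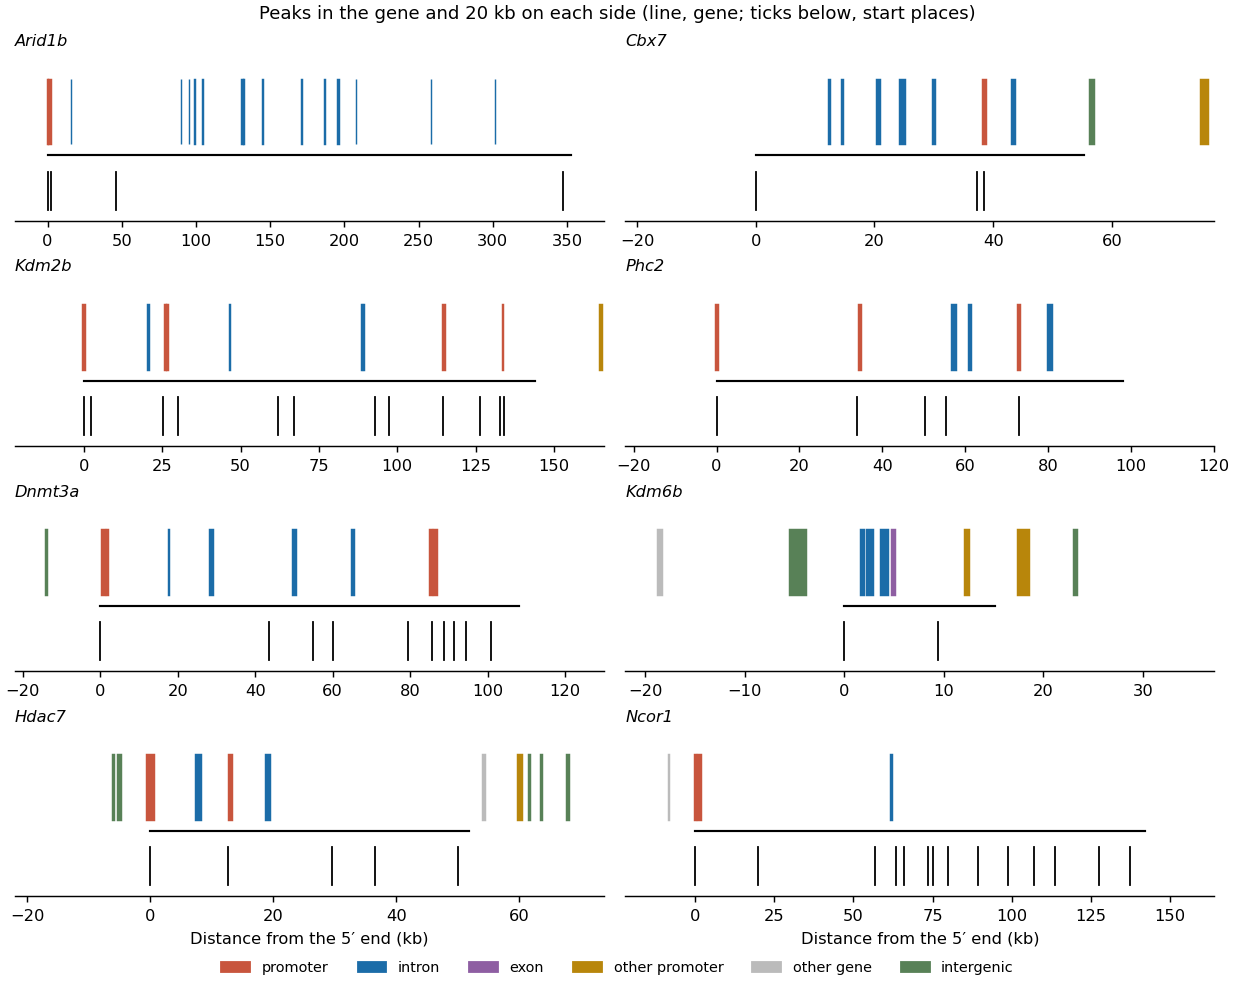
Peaks (boxes, coloured by class, to scale along the axis) in 8 genes and 20 kb on each side, as distance in kb from the 5′ end in the direction of transcription, with the gene as a line and each start place as a tick below it. Arid1b shows 14 intronic peaks, Cbx7 shows 6 intronic peaks and no peak at its 5′ end, and Kdm6b shows a wide intergenic peak upstream and a run of peaks just inside the gene.

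The maintenance methyltransferase Dnmt1 had a single promoter peak of 1041 bp. Dnmt3a, a de novo methyltransferase, had 4 promoter peaks, a number that 43 coding genes reached or passed. They were 990 and 438 bp from 138 bp downstream of the 5′ end, and 732 and 1045 bp from 84947 bp downstream of it, at internal starts. Between the pairs lay 4 intronic peaks of 462 to 908 bp. Dnmt3b had 936 bp at the 5′ end, 365 bp at an internal start and no intronic peak. The TET genes each had a different pattern. Tet3 had 1103 bp across the 5′ end and 3 intronic peaks, Tet1 had 712 bp at an internal start 33234 bp into the gene and nothing nearer to the 5′ end than 20947 bp, and Tet2 had neither a promoter nor an intronic peak.

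Of the further genes, Rad21, a cohesin subunit, and Ctcf, which stops cohesin at its sites, had promoter peaks of 1673 and 1671 bp, close to that of Ezh2. The corepressor Ncor1 had 1400 bp from 580 bp downstream of the 5′ end and 580 bp across it, both within 1 kb of the start of Pigl. Setd2, which methylates lysine 36 of histone H3, had 1332 bp, and the H3K79 methyltransferase Dot1l had 618 bp with 2 intronic peaks. Ash1l, an H3K36 methyltransferase, had no peak nearer to its 5′ end than 14587 bp. That one, 1470 bp wide and upstream, lay at the start of another gene, Dap3. The annotation gives Ash1l 1 start, and whether the gene has a start elsewhere was not tested. For the 5 corepressor genes together, the widest promoter peaks were thus 1064 to 1400 bp, all above the median of coding genes, and their introns held 1 peak, in Ncor1.

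**Figure D3:**
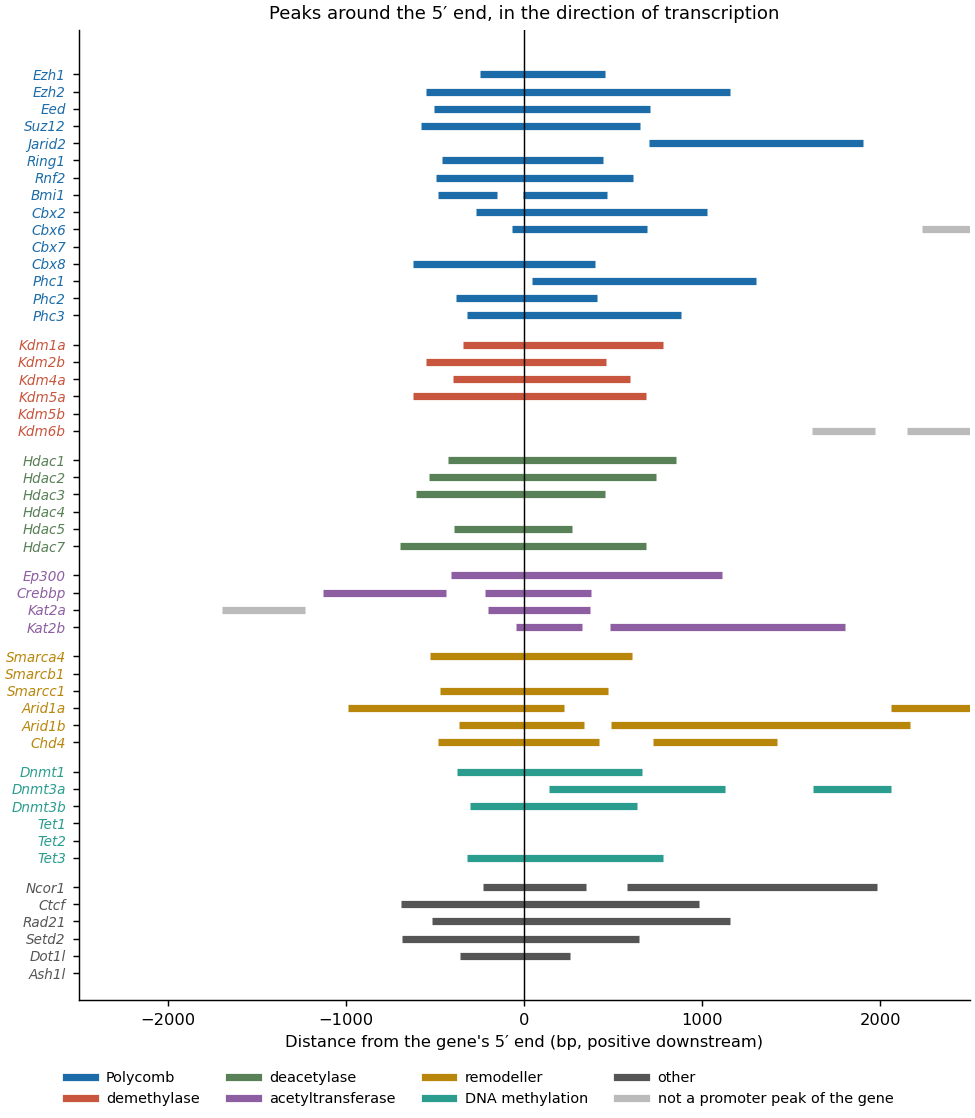
Peaks around the 5′ end of each of the 49 genes, as distance in bp in the direction of transcription. Coloured bars are promoter peaks by group, grey bars are peaks that are not promoter peaks of the gene. In 38 genes a coloured bar crosses the line at 0, and in Jarid2, Phc1 and Dnmt3a it begins downstream of it.

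Genes with 2 or more promoter peaks numbered 15 of 49, against 9 of the other 72 chromatin genes and 5.73% of coding genes. The last share is over all coding genes, and those with 2 or more were 1283 of the 10506 with a promoter peak. The 15 genes were Ezh1, Jarid2, Bmi1, Phc2, Kdm2b, Hdac5, Hdac7, Crebbp, Kat2b, Arid1a, Arid1b, Chd4, Dnmt3a, Dnmt3b and Ncor1. In Bmi1, Crebbp, Kat2b, Chd4 and Ncor1 the peaks stood side by side at a single start place, while in Ezh1, Phc2, Kdm2b, Hdac5, Hdac7, Dnmt3a and Dnmt3b they marked places more than 10 kb apart. Of the 122 start places that follow the first one in these 49 genes, 17 (13.9%) had a peak, against 11.6% over coding genes. Both shares include genes without any promoter peak, which are more common among coding genes. The shares among genes with a promoter peak were not computed. Of the first places, 41 of 49 had a peak, against 44.0% over coding genes. A promoter peak was shared with another gene in 10 of the 43 genes (23.3%), against 30.3% of coding genes with a promoter peak.

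No promoter peak of the list lay near the 1 kb limit. The farthest from a start was the Dnmt3a peak of 438 bp, at 470 bp, and the first peaks beyond the limit were a Phc2 peak of 1055 bp at 1167 bp and a Kat2a peak of 469 bp at 1228 bp. With starts taken from RefSeq, placed on mm9 by an exact match of their sequence, 42 of the genes had a start and 38 of these a peak, against 49.3% of 16403 coding genes. Of the 6 genes without a promoter peak, Hdac4 gained one of 966 bp in this way, so its absence above belongs to the GENCODE starts. Kdm5b, Smarcb1 and Tet2 had a matched start and no peak there. Kdm6b and Ash1l had no matched start, so their absence was not checked in this way. Tet1, whose promoter peak lies at an internal GENCODE start, had no peak at its RefSeq start.

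In total 219 peaks lay in the 49 genes and 20 kb on each side, and 222 when those shared by neighbouring listed genes are counted for each. These 222 were 64 promoter peaks, 64 intronic, 3 exonic and 27 intergenic peaks, 51 at starts of other genes and 13 inside other genes. Median width was 922 bp for promoter peaks and 507 bp for intronic peaks, against 870 and 461 bp for the same classes over coding genes.

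**Figure D4:**
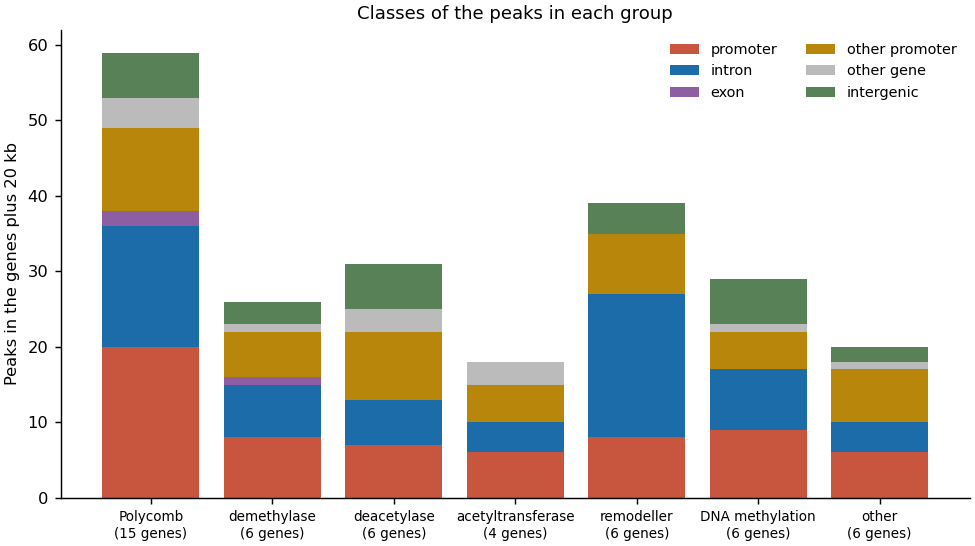
Number of peaks of each class in the genes of each group plus 20 kb on each side, with the number of genes below each bar. Polycomb genes hold most peaks (59 over 15 genes), and the remodellers are the group with most intronic peaks, 19 over 6 genes.

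At least 1 intronic peak was present in 23 of the 49 genes (46.9%), against 19.9% of coding genes and 25 of the other 72 chromatin genes (34.7%). Since long introns can hold more peaks, the number was also taken per 100 kb of intron. It was 2.13 for the listed genes and 1.03 both for coding genes and for the other chromatin genes. Arid1b held 14 of the 64 peaks, and without it the listed genes had 1.88. By group, the remodellers came first with 3.0, followed by Polycomb (2.72), DNA methylation (2.08), demethylases (1.96), deacetylases (1.73), acetyltransferases (1.42) and the further genes (0.986). This order rests on single genes. Without Arid1b the remodellers had 1.71, without Cbx7 the Polycomb genes had 1.86, without Kdm2b the demethylases had 1.34, without Kat2b the acetyltransferases had 0.551, without Dnmt3a the DNA methylation genes had 1.36, and without Hdac4 the deacetylases had 2.98. Without Dot1l the further genes had 0.535.

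The listed genes are longer than coding genes at large, with a median length of 51.8 kb against 15.4 kb, and were therefore also set beside coding genes of the same length. Below 20 kb, 2 of 8 listed genes had an intronic peak, against 5.32% of coding genes. At 20 to 50 kb the shares were 37.5% of 16 against 28.0%, at 50 to 100 kb 53.3% of 15 against 44.4%, and above 100 kb 70.0% of 10 against 55.1%. The listed genes lay above coding genes in each of the 4 classes, and the gap was narrower in each class than over all lengths. The shortest class rests on 2 genes, Kdm6b and Cbx6. Among genes that had a promoter peak, the shares with an intronic peak were 14.3% against 7.66% in the shortest class, 40.0% against 31.5%, 61.5% against 53.5%, and 6 of 8 against 76.3% above 100 kb, where the listed genes thus did not lie above coding genes. For the promoter peak the shares were 80.0 to 93.8% in the 4 length classes, against 38.1 to 62.2% of coding genes. The median width of the widest promoter peak was 903 bp against 887 bp in the shortest class. In the longer classes it was 1108 against 934 bp, 1201 against 992 bp and 1124 against 996 bp. Across the 49 genes, intron length and number of intronic peaks had a Spearman correlation of 0.420, and across all coding genes one of 0.471, both given as a description of genes that share 1 list.

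**Figure D5:**
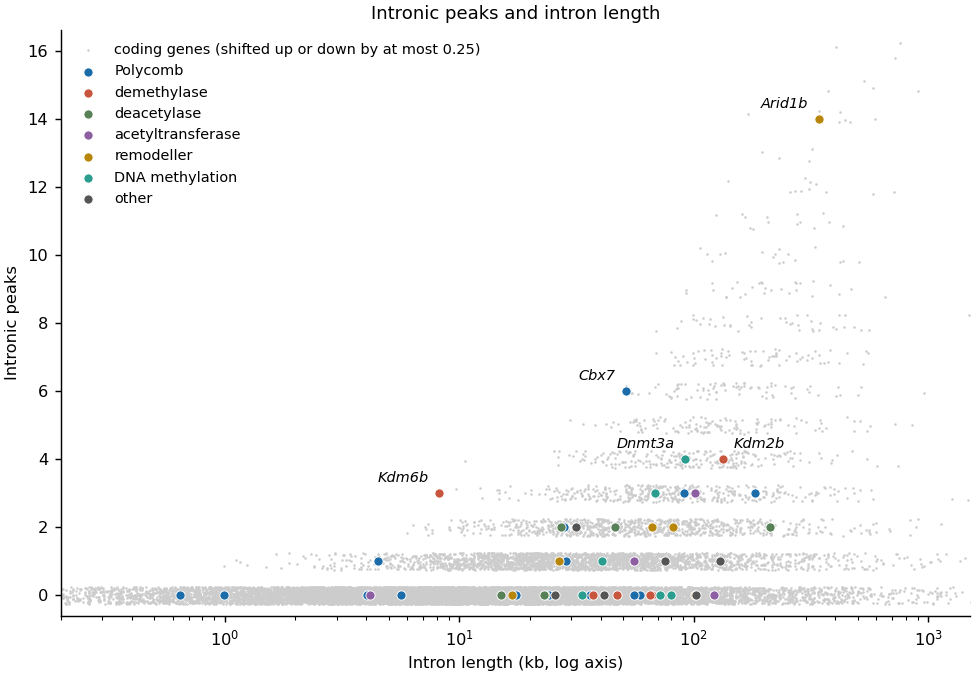
Number of intronic peaks against intron length in kb (log axis) for the 49 genes (coloured by group) and for coding genes (grey, shifted up or down by at most 0.25 for display). Coding genes with more than 16 intronic peaks or introns outside the axis are not drawn. Cbx7 and Kdm6b lie at the left edge of the genes with as many peaks, and Arid1b lies at 14.

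CpG-rich sequence, here a GC content of at least 50% with a ratio of observed to expected CpG of at least 0.6, is common at promoters of genes that are active in most tissues. The widest promoter peak was CpG-rich in 36 of the 43 genes (83.7%), against 79.1% of coding genes with a promoter peak. It was so in all 15 Polycomb genes, all 4 acetyltransferases, all 5 remodellers and all 5 further genes with a peak. Among the DNA methylation genes it was 1 of 5, Dnmt3b. The ratios of Dnmt1 (0.578) and Tet3 (0.570) lay just under the limit, and those of Tet1 (0.406) and Dnmt3a (0.328) farther below it. In Dnmt3a the widest peak is an internal one, and the peak near its 5′ end, of 990 bp, had a ratio of 0.868. The other exceptions were Kdm4a (0.588), Hdac5 (0.30) and Hdac7 (0.284). The Hdac5 value also belongs to an internal peak, 673 bp wide, and the peak of 664 bp at its 5′ end was CpG-rich with a ratio of 0.875. Width and CpG ratio had a Spearman correlation of 0.0800 across the 43 peaks and of 0.245 across coding genes.

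Where the 1 kb around the 5′ end was CpG-rich, 31 of 34 listed genes had a promoter peak (91.2%), against 76.2% of 9879 such coding genes. Where it was not, 12 of 15 had one (80.0%), against 23.8% of 12501. The difference from coding genes was thus present in both classes and larger where the 5′ end was not CpG-rich. These classes describe the 5′ end alone, while the promoter peak can extend beyond it or lie at another start. Among the genes whose 5′ end was not CpG-rich, the widest promoter peak was itself CpG-rich in Jarid2, Cbx7, Phc1, Hdac3, Kat2a and Arid1a. It was not in Kdm4a, Hdac7, Dnmt1, Dnmt3a, Tet1 and Tet3. The 3 genes with a CpG-rich 5′ end and no promoter peak were Kdm5b, Smarcb1 and Tet2. Their 250 bases upstream of the 5′ end are printed with those of Ezh2, the gene with the widest promoter peak, 5′ to 3′ in the direction of transcription with every CG in capitals. They are chr6:47545341-47545590 (minus strand) for Ezh2, chr1:136456498-136456747 (plus) for Kdm5b, chr10:75384363-75384612 (minus) for Smarcb1 and chr3:133207355-133207604 (minus) for Tet2, all on mm9 and outside annotated exons.
Ezh2: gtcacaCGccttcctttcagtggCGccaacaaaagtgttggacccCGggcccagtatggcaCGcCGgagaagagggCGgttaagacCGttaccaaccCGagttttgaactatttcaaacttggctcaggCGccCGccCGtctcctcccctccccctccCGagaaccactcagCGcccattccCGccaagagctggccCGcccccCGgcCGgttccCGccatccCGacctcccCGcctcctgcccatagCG
Kdm5b: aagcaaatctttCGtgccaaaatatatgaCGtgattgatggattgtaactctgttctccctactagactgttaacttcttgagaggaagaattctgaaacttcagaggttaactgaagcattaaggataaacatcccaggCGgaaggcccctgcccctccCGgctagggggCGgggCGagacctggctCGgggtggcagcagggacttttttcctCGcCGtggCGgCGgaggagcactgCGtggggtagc
Smarcb1: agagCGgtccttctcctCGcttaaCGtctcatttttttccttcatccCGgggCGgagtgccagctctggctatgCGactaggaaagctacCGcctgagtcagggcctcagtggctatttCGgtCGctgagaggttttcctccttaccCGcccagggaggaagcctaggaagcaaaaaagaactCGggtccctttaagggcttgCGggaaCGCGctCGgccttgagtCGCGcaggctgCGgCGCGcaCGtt
Tet2: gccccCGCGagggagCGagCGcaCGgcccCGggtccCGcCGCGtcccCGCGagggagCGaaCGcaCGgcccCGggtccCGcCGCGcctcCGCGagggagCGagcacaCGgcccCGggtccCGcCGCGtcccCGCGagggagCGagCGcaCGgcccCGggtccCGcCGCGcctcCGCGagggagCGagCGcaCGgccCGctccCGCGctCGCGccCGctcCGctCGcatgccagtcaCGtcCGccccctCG
These stretches hold 21 CG in Ezh2, 12 in Kdm5b, 21 in Smarcb1 and 51 in Tet2. Smarcb1 therefore has as many as Ezh2 without a listed peak, and Tet2 has more. How well reads can be placed on these stretches was not tested.

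The RBPJ word TGGGAA, searched on both strands, was in 112 of the 219 peaks (51.1%), against 42.5% of all peaks of the list. The peaks of the listed genes are wider, and per kb of peak the values were 0.909 and 0.893. In promoter peaks it was 32 of 64 (50%) against 48.9% for coding genes, with 0.646 and 0.798 words per kb. In intronic peaks it was 32 of 64 (50%) against 38.0%, with 1.18 and 0.958 words per kb. In intergenic peaks it was 13 of 26 against 41.2%, with 1.14 and 1.02 words per kb. Intronic and intergenic peaks of the listed genes thus lay above those of coding genes on both scales. Promoter peaks did not lie above them per kb. These differences rest in part on few genes. Arid1b and Cbx7 held a large share of the 44 intronic words, and the upstream Kdm6b peak held 4 of the 18 intergenic words. The values were not recomputed without these genes. In the central 200 bp, intergenic peaks lay below those of coding genes (15.4% against 17.8%), while intronic peaks still lay above them. By group, intronic peaks with the word were 11 of 19 in the remodellers, 7 of 16 in Polycomb, 5 of 7 in the demethylases, 4 of 6 in the deacetylases, 2 of 4 both in the acetyltransferases and in the further genes, and 1 of 8 in the DNA methylation genes. Of the promoter peaks of the corepressor genes, those of Hdac3, Kdm1a and the wider one of Ncor1 held 2 words each, and those of Hdac1 and Kdm5a held 1. The narrower Ncor1 peak held none.

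For comparison, 2 other words were counted in promoter and intronic peaks. CAGCTG, which basic helix-loop-helix factors of lymphocytes bind, was in 42.2% of the promoter peaks of the listed genes, against 40.5% for coding genes, and in 43.8% of the intronic peaks, against 45.4%. GGGCGG, bound by Sp1 and its relatives, was in 84.4% of their promoter peaks, against 79.4%, with 4.67 and 3.67 words per kb. In their intronic peaks GGGCGG was in 18 of 64 (28.1%), against 15.3%, with 0.727 and 0.433 words per kb. The intronic peaks of the listed genes were thus above those of coding genes for the G-rich word as well as for TGGGAA, but not for CAGCTG. Their only CpG-rich intronic peaks, 3 of 64, were those of Kdm6b, with 3, 1 and 3 of the 27 GGGCGG words. The GGGCGG values were not recomputed without Kdm6b.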

How the data were processed

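The genes, their groups and the lists were chosen with earlier results of these data known. Per the labels and the study's methods, the authors aligned reads to mm9 with HISAT2 2.2.1, called peaks with MACS2 without input, took those conserved in at least 3 of 6 libraries, and discarded blacklisted sites. The deposited list holds peak positions in bp, counted from 0 in the file and from 1 here, and a score of 0 in every row. A peak of 1 treatment alone can pass that filter. Depth and the shift of read ends were not used here. Genes and starts came from GENCODE vM1 on NCBIM37, the build of mm9. Each peak in a gene plus 20 kb was classed as promoter peak of the gene (within 1 kb of a start), promoter peak of another gene, or, by its centre, exonic, intronic, inside another gene or intergenic. Of 2 records named Hdac4, the longer was used. Named are all members without a promoter peak or with 2 or more, the extremes of each group, the corepressor partners and paralogs. Spearman correlations and medians were computed in Python 3.11.15 with numpy 2.4.6 and scipy 1.17.1, and peak classes were tested on simulated data. RefSeq promoters (GRCm38.p6) were matched to mm9 with minimap2 2.31, 32746 of 32851 exactly. The RefSeq starts, the T-cell, B-cell and myeloid genes, the words GGGCGG and CAGCTG, the split by CpG at the 5′ end, the counts of coding genes with as many peaks and the sets without 1 gene were added after the data had been seen. Alternatives set earlier were other distances, flanks and start definitions, wider or joined peaks, other exon rules and a looser motif.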

Additional observations from a re-analysis of the deposited data

How the results depend on the processing

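Of 87 combinations of a result with an alternative setting, 72 stayed the same and 15 did not. The same means within 1.5 times the reported count or inside the spread of the reported value. For group medians of width outside Polycomb, that spread was the full range of 4 or 5 genes, which a median can hardly leave. The acetyltransferase median rose from 1005 bp to 1406 bp with summed widths and 1514 bp with joined peaks, and still counted as the same. With summed widths the remodeller median rose from 1135 to 1607 bp, also counted so. The number of genes with a promoter peak was 41 to 43 under 5 settings of distance, starts and width, and 38 with RefSeq starts. Under the same 5 settings, 43.8 to 46.1% of coding genes had one. The median promoter width was 1281 bp when all promoter peaks of a gene were summed. With peaks of at least 500 bp alone, intronic peaks fell to 34 in all, with 8 in Polycomb, 3 in demethylase, 1 in acetyltransferase, 11 in remodeller, 5 in DNA methylation and 2 in further genes, and peaks in the window to 141. Joining peaks within 1 kb left 4 intronic peaks in the demethylases, which merges neighbours in Kdm2b and Kdm6b. The window held 338 peaks with 50 kb and 131 with the gene record alone. The share of peaks with the RBPJ word was 63.9% when TGAGAA was also allowed, against 62.5% of all peaks of the list. In promoter peaks that share was 59.4%, against 65.4% for coding genes. In the central 200 bp TGGGAA was in 18.3% of the peaks, against 15.3% of all peaks of the list. CpG-rich widest promoter peaks were 69.8% at a ratio of 0.75 and a GC content of 55%, with no share of coding genes set beside it. No paired analysis was possible because no library has values of its own, and the comparison of GSI with DMSO, with and without each replicate, was not run for the same reason. The missing depth and peak height limit every count to presence in the list.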

Other observations

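Among the other 72 chromatin genes, 6 had no promoter peak, which were Pcgf1, Hdac9, Chd3, Chd8, Mbd3 and Dnmt3l. The widest promoter peak was over 1 kb wide in 44 of the remaining 66, and in all 72 genes 47 intronic peaks were spread over 4551 kb of intron. Their largest counts of intronic peaks were 7 in Tbl1xr1, a subunit of the NCOR1 complex, and 6 in Kat6b, an acetyltransferase that the annotation lists under the older name Myst4.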
